A study of Mus musculus with 16 samples.

Results

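Expression of 9 long noncoding RNA genes was examined in the developing mouse seminal vesicle (SV), a male accessory gland that secretes most of the seminal plasma. The 9 genes were listed by name, as *Gas5*, *Snhg1*, *Snhg3*, *Snhg8*, *Malat1*, *Neat1*, *Tug1*, *Hotair* and *Miat*, and each was found under its symbol among the 31274 genes of the week 5 RNA-seq table. A mean above 1 FPKM (fragments per kilobase of transcript and relative to library size, a level per length) in at least 1 group was reached by 7 of the 9. *Hotair* and *Miat* stayed below it. The same minimum was passed by 15988 genes in all, and these were tested.

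*Gas5*, *Snhg1*, *Snhg3* and *Snhg8* are host genes of small nucleolar RNAs (snoRNAs), which are cut out of the introns and guide the chemical modification or processing of ribosomal RNA. The spliced remainder of such a host codes for little or no protein, is often destroyed by nonsense-mediated decay (NMD), and in *Gas5* and several other hosts begins with a run of pyrimidines (5′ TOP) like the mRNAs for ribosomal proteins. *Malat1* and *Neat1* are abundant nuclear RNAs, of nuclear speckles and of paraspeckles respectively, while *Hotair* is transcribed from the HoxC gene cluster and *Miat* is a nuclear RNA best known from neural tissue.

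The SVs came from 5-week-old male C57Bl/6 mice of 2 genotypes, WT and αERKO, given vehicle (veh) or DES, which makes 4 groups with 4 samples apiece (WT-veh, WT-DES; αERKO-veh, αERKO-DES). The αERKO animals lack oestrogen receptor α (ERα, gene *Esr1*) in all tissues and were bred from heterozygotes. DES, or diethylstilbestrol, is a synthetic oestrogen. Each pup received a daily injection of 2 µg from day 1 to day 5 of life, or corn oil only in the vehicle groups. For RNA extraction the methods describe individual mice in every group except WT-DES, for which 3 pools of mice are described, although 4 samples per group were deposited. Whole SVs, freed of the anterior prostate, were used, so a change in the number of cells of a type cannot be told apart from a change of RNA per cell.

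The steps between low FPKM values gave an estimated depth of 20200000 to 27400000 fragments per sample, highest in WT-DES. *Esr1* ranged from 2.81 to 4.55 FPKM in WT-veh and from 8.74 to 19.6 in WT-DES. It lay between 0.91 and 1.75 in the 8 αERKO samples, below every WT sample. The SV secretion genes, which define the tissue, summed to between 44510 and 52170 FPKM in WT-veh but to between 2283 and 7298 in WT-DES, and all 7 of them were lower in WT-DES. Markers of leukocytes (9 genes) summed to between 82.7 and 146 FPKM in WT-veh and between 415 and 622 in WT-DES, and those of fibroblasts (6 genes) to between 731 and 881 and between 1916 and 2091. All 9 leukocyte, all 6 fibroblast and all 3 endothelium markers were called higher in WT-DES, 4 of 6 epithelium and 4 of 5 smooth muscle markers were called lower, and no marker was at 0 throughout a group. Markers of skeletal muscle (5 genes) summed to between 547 and 1243 FPKM in WT-veh and between 31.5 and 324 in WT-DES. In αERKO-veh the SV secretion genes, at 27180 to 42140 FPKM, and the epithelium markers, at 1182 to 1456 against 1463 to 1621, lay below every WT-veh sample. The part of these differences in the results below was not tested.

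Neonatal DES changed 4 of the 7 tested lncRNAs in WT SV. *Malat1* rose and *Gas5*, *Snhg3* and *Snhg8* fell. A call required a limma adjusted p of 0.05 or less, a change of 1.5-fold or more in mean FPKM and a mean above 1 FPKM in either group. In WT-DES relative to WT-veh, 52.7% of all tested genes were called, 28.9% higher and 23.9% lower, so that 1 higher and 3 lower of 7 is close to the background. Relative to WT-veh, αERKO-veh had 3 calls of 7, *Malat1* higher and *Snhg1* and *Snhg8* lower, where 7.12% of all genes were called (4.5% higher and 2.63% lower). Within αERKO no member passed with DES (αERKO-DES against αERKO-veh), where the background was 1.49% (0.0876% higher and 1.41% lower) and where 239 genes were called against 4042 at an unadjusted p below 0.05. The 239 became 1 without αERKO-veh replicate 4, 2 without any 1 of αERKO-DES replicates 1, 2 and 3, and 3 without αERKO-veh replicate 2, so that the number of calls in this comparison depended on which samples entered it. *Malat1*, *Snhg3* and *Snhg8* were the 3 members with an unadjusted p below 0.05 in that comparison. Between αERKO-DES and WT-DES, *Snhg3* was higher and *Malat1* lower, against 53.4% of all genes (23.7% higher and 29.6% lower).

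The effect of DES differed between the genotypes for 5 of the 7. This interaction was tested directly, by subtracting the αERKO change with DES from the WT change. *Malat1* was called with a positive difference, and *Gas5*, *Snhg1*, *Snhg3* and *Snhg8* with a negative one. Over all tested genes the interaction was called for 56.4% (29.6% positive and 26.9% negative). *Neat1* and *Tug1* were not called in any of the 5 comparisons on the deposited scale.

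**Figure D1:**
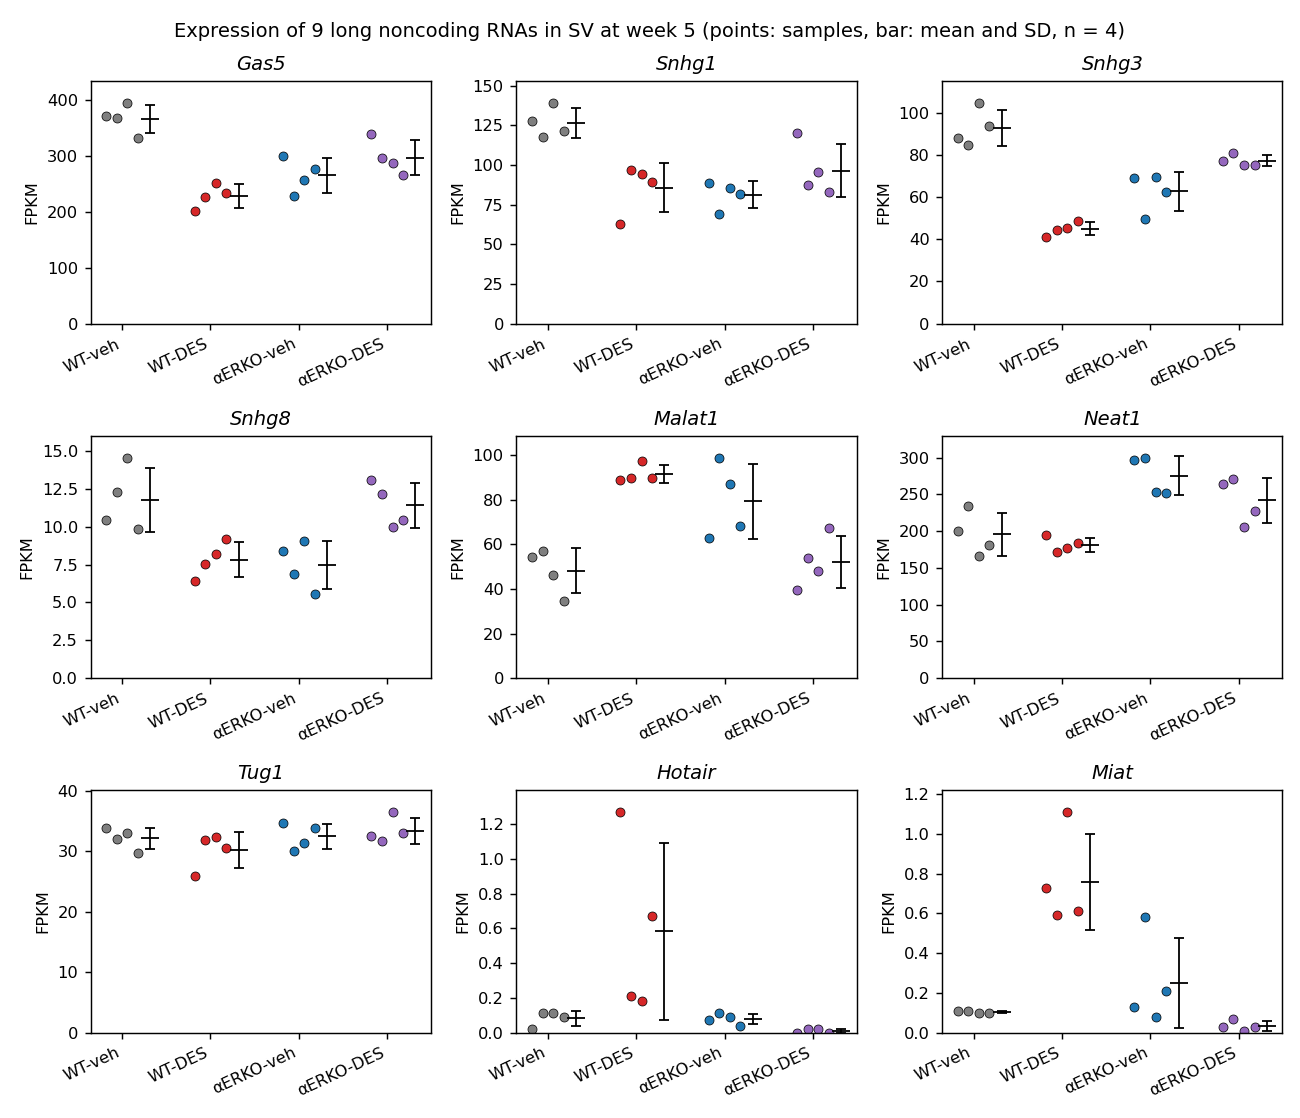
FPKM of the 9 lncRNAs in each sample (points) of the 4 groups on the x axis, with mean and SD beside them (n = 4, linear y axis from 0 in each panel). All 4 WT-DES samples lie below all WT-veh samples for *Gas5*, *Snhg1*, *Snhg3* and *Snhg8* and above them for *Malat1*, *Hotair* and *Miat*, while *Neat1* and *Tug1* overlap.

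The samples of WT-DES and WT-veh did not overlap for 7 of the 9 genes, against 66.7% of all tested genes. Between αERKO-veh and WT-veh there was no overlap for 6 of the 9, against 29.7% of all tested genes, and between αERKO-DES and αERKO-veh for 4 of the 9, against 13.0%. For αERKO-DES and WT-DES the count was 7 of the 9, against 66.5%. *Hotair* and *Miat* are in these counts but not among the tested genes behind the shares. Both were without overlap in every comparison except αERKO-veh against WT-veh. Between αERKO-DES and αERKO-veh the only tested members without overlap were *Snhg3* and *Snhg8*.

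Among the snoRNA hosts, *Gas5* (growth arrest specific 5) holds 10 annotated snoRNA entries. In GENCODE M21 (GRCm38) it spans 161034422 to 161038539 of chromosome 1, plus strand. *Snhg1*, with 8 snoRNAs, is on chromosome 19 from 8723475 to 8726443 (plus strand). *Snhg3*, with 2, is on chromosome 4 from 132348014 to 132353686 (minus strand), and *Snhg8*, with 1, is on chromosome 3 from 123507552 to 123508404 (minus strand). The start regions of these 4 hosts are shown, since 3 of them fell in WT-DES, together with that of *Malat1*, which rose. Each is a stretch of 80 bases, 40 before the RefSeq start and 40 from the start base on, 5′ to 3′ on the gene's strand (RefSeq, GRCm38.p6). Capitals mark runs of at least 6 pyrimidines near the start.
Gas5, second of 2 starts, chr1:161035126-161035205, plus strand: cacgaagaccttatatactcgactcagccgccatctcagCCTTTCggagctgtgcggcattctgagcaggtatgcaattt
Snhg1, chr19:8723447-8723526, plus strand: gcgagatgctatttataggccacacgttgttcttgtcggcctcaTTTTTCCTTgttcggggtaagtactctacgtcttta
Snhg3, chr4:132353647-132353726, minus strand: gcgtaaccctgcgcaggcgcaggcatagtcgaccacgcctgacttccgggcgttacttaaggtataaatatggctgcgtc
Snhg8, chr3:123508297-123508376, minus strand: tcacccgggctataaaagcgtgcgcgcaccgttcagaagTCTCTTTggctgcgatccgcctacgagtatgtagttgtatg
Malat1, chr19:5802633-5802712, minus strand: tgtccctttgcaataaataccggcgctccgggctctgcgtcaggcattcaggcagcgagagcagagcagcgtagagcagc

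A TOP-like start, meaning C at the annotated start base followed by at least 4 pyrimidines, was present in the *Gas5* start shown, in *Snhg8* and in *Miat*. The other of the 2 *Gas5* starts, not shown, did not have these letters. It was present in 2.51% of the 32851 mouse promoters of the same table. *Snhg1* and *Snhg3* did not have these letters at the annotated start base, although *Snhg1* has a run of 9 pyrimidines just after it. The letters TATAAA stood 20 to 40 bases before the start of *Snhg8* only, on the gene's strand, as in 1.99% of all promoters. In the full windows of 300 bases, the palindromic oestrogen response element was in none of the 8 promoters of 7 members and in 0.07% of all promoters, and its core GGTCA, searched on both strands, was in those of *Malat1* and *Miat* and in 40.5% of all promoters.

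*Gas5* was the most abundant of the 9 on the FPKM scale in WT-veh, at 372, 367, 395 and 333 FPKM. WT-DES samples had 201, 227, 251 and 235. The αERKO-veh samples had 300.2, 228, 257 and 278, and those of αERKO-DES 339.6, 297, 288 and 266. Every WT-veh sample was above every WT-DES and αERKO-veh sample, while the 2 αERKO groups overlapped. In WT-DES relative to WT-veh, *Gas5* fell by 0.68 on the log2 scale (standard error 0.10, limma adjusted p = 2.79e-05), a ratio of 0.623 between means of 228 ± 21.0 and 367 ± 25.6 (SD, n = 4 each), but after quantile normalization the change was 0.26 in the other direction (limma adjusted p = 0.0886). In αERKO-veh the log2 change was −0.47 (limma adjusted p = 0.00915) at a ratio of 0.725, short of the fold threshold. With DES in αERKO it was 0.16 (95% interval −0.06 to 0.38, limma adjusted p = 0.329), and the interaction was −0.85 (standard error 0.15, limma adjusted p = 0.000117), which quantile normalization also turned, to 0.29.

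*Snhg3*, the host of the RNAs *Snora73a* and *Snora73b*, had the largest fall of the 4 hosts on the deposited scale, though not with the length correction or after quantile normalization. It stood at 88.1, 84.8, 105 and 93.7 FPKM in WT-veh and at 41.3, 44.6, 45.6 and 48.7 in WT-DES. In αERKO-veh it was 69.1, 49.6, 69.4 and 62.6, and in αERKO-DES 77.3, 80.9, 75.2 and 75.4. The groups fell in the order WT-veh, αERKO-DES, αERKO-veh and WT-DES without overlap between neighbours. The log2 change with DES in WT was −1.02 (standard error 0.10, limma adjusted p = 2.56e-07; ratio 0.485), that in αERKO 0.31 (95% interval 0.10 to 0.52, limma adjusted p = 0.0836), and the difference between both −1.33 (standard error 0.14, limma adjusted p = 1.01e-06). The WT change was −0.56 after quantile normalization and −0.40 with the length correction, both short of the fold threshold, as was the interaction with the length correction (−0.58). *Snhg3* was 1.71 times higher in αERKO-DES than in WT-DES (log2 change 0.77, limma adjusted p = 4.37e-06), a call that was lost after quantile normalization (0.33), with equal totals without the 20 highest genes (0.39) and with the length correction on the longest (0.41) or the median transcript (0.51). It was below WT-veh in αERKO-veh at a ratio of 0.675, just short of a call (log2 change −0.57, limma adjusted p = 0.00499). This change was called with the GC correction (−0.64). It was also called without any 1 of WT-veh replicates 1 and 2 and αERKO-veh replicates 1 and 3 (−0.59, −0.61, −0.62 and −0.62). With the length correction it was −0.17 (limma adjusted p = 0.19).

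*Snhg1*, the host of *Snord22* and of 7 other C/D-box snoRNAs, had 127, 117, 139 and 122 FPKM in WT-veh and 62.8, 96.8, 94.1 and 88.9 in WT-DES. The αERKO-veh samples had 88.5, 69.0, 85.4 and 81.6, and those of αERKO-DES 120.3, 87.1, 95.2 and 83.1. WT-veh was above both WT-DES and αERKO-veh without overlap, and 1 αERKO-DES sample reached the WT-veh range. In αERKO-veh it fell by 0.64 (standard error 0.14, limma adjusted p = 0.00876; ratio 0.642). This call was lost after quantile normalization (−0.44, limma adjusted p = 0.0551), with equal totals (−0.46), with the length correction on the longest (−0.55) or the median transcript (−0.48) and without αERKO-veh replicate 2 (−0.56). The ratio of 0.678 in WT-DES missed the fold threshold (log2 change −0.57, limma adjusted p = 0.00164), and quantile normalization brought it to 0.04. Without WT-DES replicate 2 or 3, or WT-veh replicate 2, the fold threshold was passed, with log2 changes of −0.64, −0.62 and −0.61. The interaction was −0.81 (standard error 0.20, limma adjusted p = 0.0018), and −0.04 after quantile normalization (limma adjusted p = 0.877).

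*Snhg8*, which holds *Snora24*, was the least abundant host, with 10.4, 12.3, 14.6 and 9.84 FPKM in WT-veh. With DES the WT values were 6.44, 7.52, 8.19 and 9.19. The αERKO-veh samples had 8.38, 6.86, 9.07 and 5.58, and those of αERKO-DES 13.1, 12.15, 9.98 and 10.4. All αERKO-DES samples lay within the range of WT-veh, and WT-DES and αERKO-veh overlapped at lower values. It fell by 0.53 in WT-DES (standard error 0.15, limma adjusted p = 0.00487; ratio 0.665) and by 0.60 in αERKO-veh (standard error 0.15, limma adjusted p = 0.013; ratio 0.634), but with FPKM corrected for transcript length the change in WT-DES was 0.02 (limma adjusted p = 0.917) and that in αERKO-veh −0.24 (limma adjusted p = 0.309). The call in WT-DES was lost without any 1 of WT-veh replicates 2 and 3 and WT-DES replicates 1 and 2 (log2 changes of −0.51, −0.43, −0.45 and −0.51), and that in αERKO-veh without WT-veh replicate 3 (−0.50) or αERKO-veh replicate 4 (−0.48). With DES in αERKO its log2 change was 0.56 (95% interval 0.25 to 0.88, limma adjusted p = 0.0526) at a ratio of 1.53. Without αERKO-veh replicate 1 or 3 it was called (log2 changes of 0.62 and 0.65). The interaction was −1.09 (standard error 0.21, limma adjusted p = 0.000305), and −0.42 with the length correction (limma adjusted p = 0.0805) and −0.58 with equal totals (limma adjusted p = 0.0259), neither of them called.

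Over the 16 samples, after subtraction of each group's mean, the 6 pairs among *Gas5*, *Snhg1*, *Snhg3* and *Snhg8* had correlations of log2(FPKM + 1) between 0.53 (*Snhg8* with *Gas5* and with *Snhg1*) and 0.82 (*Gas5* with *Snhg1*). *Tug1*, which is no snoRNA host, had 0.62 with *Gas5* and 0.65 with *Snhg1*. All pairs share their libraries and any difference between them. Only 2 of the snoRNAs inside these hosts were listed. *Snord47*, inside *Gas5*, was listed at 0 throughout. *Snord22*, which overlaps an exon of *Snhg1*, was listed at 0 in 11 samples and reached 75.1 FPKM in αERKO-DES replicate 3.

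Some host reads can belong to neighbours, since no source used here states whether the libraries keep strand. *Snhg3* shares exonic sequence on the same strand with *Rcc1*, the nucleotide exchange factor of Ran, which was 10.2 ± 1.09 FPKM in WT-DES and 13.9 ± 1.42 in WT-veh (log2 change −0.41, limma adjusted p = 0.0056, not called). *Zbtb37*, a zinc finger gene on the strand opposite to *Gas5* whose span reaches into it without shared exons, moved the other way. It was between 0.87 and 1.43 FPKM in WT-veh and between 3.0 and 3.46 in WT-DES, a rise of 0.98 on the log2 scale (standard error 0.14, limma adjusted p = 1.27e-05). *Slc3a2*, the heavy chain of amino acid transporters next to *Snhg1*, fell from 140.2 ± 9.06 to 55.2 ± 3.89 FPKM (log2 change −1.33, limma adjusted p = 5.62e-08).

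Of 16 other snoRNA host lncRNAs tested, 5 fell and 1 rose in WT-DES, with a median log2 change of −0.39 against −0.01 over all genes, of which 23.9% were called lower and 28.9% higher, so that 5 of 16 is near the background. The 5 were *Gm11974* (44.1 ± 4.58 FPKM in WT-veh and 12.9 ± 1.12 in WT-DES; log2 change −1.69, limma adjusted p = 8.64e-09), *2810008D09Rik*, *Dancr* (−0.98, limma adjusted p = 5.16e-06), *Snhg4* and *9430008C03Rik*. *Snhg11* went the other way, from 1.86 ± 0.573 to 7.88 ± 6.58 FPKM (log2 change 1.37, limma adjusted p = 0.00507), with WT-DES samples from 2.55 to 17.2. In αERKO-veh, 7 of the 16 fell and none rose, with a median of −0.59 against −0.02 over all genes, of which 2.63% were called lower. *Dancr* had the largest of these falls, at −0.94, and 1 of the 7 was still called lower when FPKM were corrected for transcript length. The summed epithelium and secretion markers were also lower in αERKO-veh, as given above. With DES in αERKO the limma fit called none of the other hosts, 7 had an unadjusted p below 0.05, and the median was 0.28. The interaction was called negative for 9 and positive for 1 (26.9% and 29.6% of all genes), and the 9 became 5 with the length correction, 6 after quantile normalization and 3 with equal totals. Under equal totals without the 20 highest genes the 16 hosts had 3 falls in WT-DES and a median of 0.01, against a shift of 0.38 in the median of all genes.

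**Figure D2:**
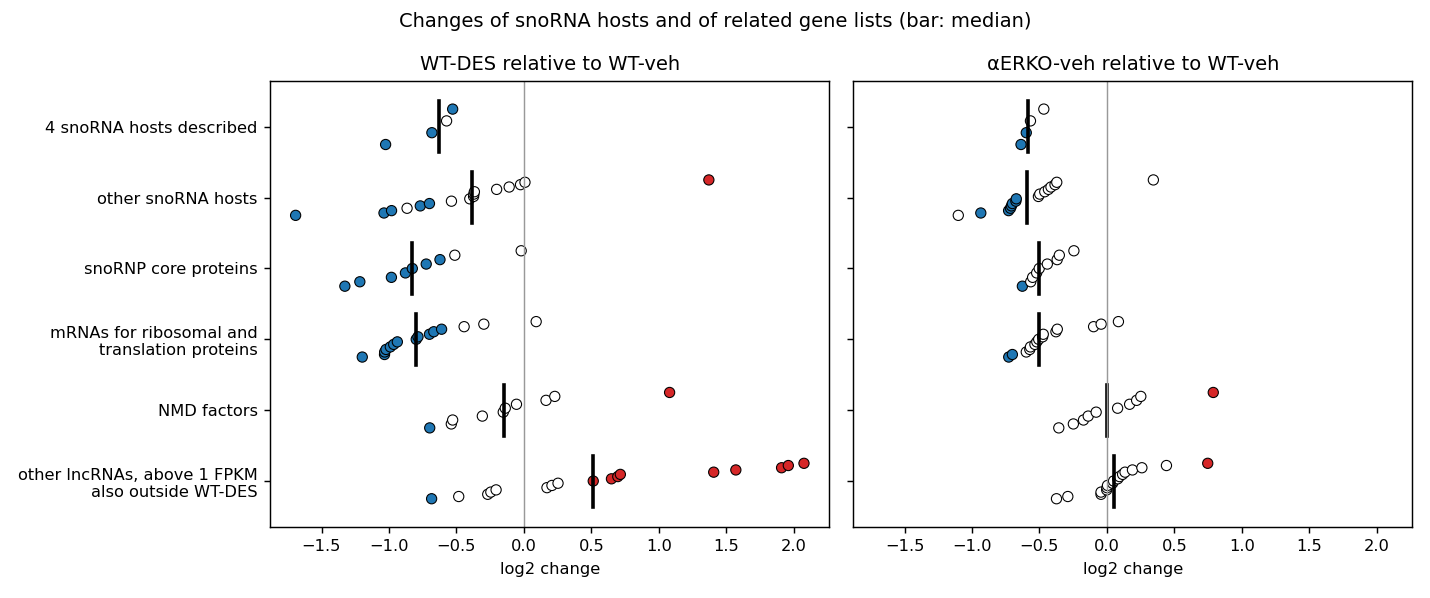
log2 change (x axis, log2(FPKM + 1) scale) of each tested gene in 6 groups of genes, in WT-DES (left) and αERKO-veh (right) relative to WT-veh. Points are genes, filled red when called higher, blue when called lower and open when not called, and bars are medians, which for the other snoRNA hosts are −0.39 and −0.59. The 3 lncRNAs above 1 FPKM in WT-DES alone are not plotted.

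Of 9 core proteins of the snoRNA particles tested, 7 fell in WT-DES (median log2 change −0.83), where 23.9% of all genes were called lower, among them *Nop10* (−1.33, limma adjusted p = 4.13e-07) and *Nhp2* (−1.22, limma adjusted p = 7.94e-07), subunits of the H/ACA particles that carry out pseudouridylation. *Dkc1*, the pseudouridine synthase of the same particles, was 14.04 FPKM in WT-veh and 13.83 in WT-DES (limma adjusted p = 0.811). Only *Fbl*, the methyltransferase of C/D particles, was called lower in αERKO-veh (log2 change −0.63), where none was called with equal totals and 2 with the length correction. The interaction was called negative for 8 of the 9, against 26.9% of all genes. With equal totals without the 20 highest genes, 3 of the 9 were called lower in WT-DES (median −0.40) and 4 had a negative interaction, and after quantile normalization 5 were called lower in WT-DES. Of 15 mRNAs for ribosomal and translation proteins from a list of known TOP mRNAs, 12 fell in WT-DES (median −0.80), again against 23.9% of all genes, but after quantile normalization 1 was called lower and 1 higher. *Rplp0* had the largest fall, at −1.20 (limma adjusted p = 5.27e-07).

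Of 10 NMD factors, *Smg1* rose in WT-DES (log2 change 1.08, limma adjusted p = 7.43e-05) and *Upf3a* fell (−0.70, limma adjusted p = 1.87e-07). No other factor was called there, where 28.9% of all tested genes were called higher and 23.9% lower. *Smg1*, the kinase that phosphorylates *Upf1*, was also the only one of the 10 called in αERKO-veh, at 0.79, against 7.12% of all tested genes. This call was lost with the length correction. The median of the list was −0.15 in WT-DES. With equal totals without the 20 highest genes 3 of the 10 were called higher and none lower there, and with the length correction none was higher and 2 were lower.

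*Malat1* is on chromosome 19 from 5795690 to 5802672 (minus strand), and *Neat1* lies 22036 bp away on the same strand, from 5824708 to 5845478. *Malat1* had 54.5, 57.1, 46.2 and 34.7 FPKM in WT-veh and 89.1, 89.6, 97.45 and 89.7 in WT-DES. The αERKO-veh values were 62.9, 99.0, 87.0 and 68.3, and the αERKO-DES values 39.7, 53.8, 48.2 and 67.4. Every WT-DES and every αERKO-veh sample was above every WT-veh sample, and αERKO-DES overlapped with WT-veh and αERKO-veh. *Malat1* rose 1.9-fold with DES in WT (log2 change 0.94, standard error 0.18, limma adjusted p = 0.000216). In αERKO-veh it was 1.65-fold higher than in WT-veh (log2 change 0.71, limma adjusted p = 0.013), a call that was lost without αERKO-veh replicate 2 (0.60, limma adjusted p = 0.0512). With the length correction both changes, at 0.57 and 0.46, were below the fold threshold.

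In αERKO the sign of the *Malat1* value with DES was the opposite of that in WT. The log2 change in αERKO-DES relative to αERKO-veh was −0.59 (95% interval −0.97 to −0.22, limma adjusted p = 0.0705) and passed the threshold without αERKO-veh replicate 1 (−0.70) or αERKO-DES replicate 4 (−0.72). Relative to WT-DES, αERKO-DES was lower by a log2 change of −0.82 (limma adjusted p = 0.000647; ratio 0.572), a call that was lost with the length correction (−0.58). The interaction of 1.53 (standard error 0.25, 95% interval 1.00 to 2.06, limma adjusted p = 7.14e-05) was the only one among the members that kept its call in each of the 29 alternative settings, with values from 1.04 to 2.19.

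*Neat1*, whose long form builds paraspeckles, had its highest values in the αERKO groups. It had 200.01, 234, 166 and 181 FPKM in WT-veh and 194, 172, 177 and 183 in WT-DES. In αERKO-veh it had 297, 300.1, 253 and 251, above every WT sample, and in αERKO-DES 264, 271, 205 and 228, above WT-DES but overlapping WT-veh. With DES in WT the log2 change was −0.10 (95% interval −0.34 to 0.15, limma adjusted p = 0.458), a sign that turned to 0.68 under quantile normalization (limma adjusted p = 0.000354) and to 0.34 under equal totals without the 20 highest genes. The ratio of 1.41 in αERKO-veh relative to WT-veh was under the fold threshold (log2 change 0.50, standard error 0.11, limma adjusted p = 0.00989), and with correction on the longest transcript, of 20771 nt, the change was 0.01. On the median transcript this change was 0.47 and not called. It was called higher after quantile normalization (0.78, limma adjusted p = 0.00778), with equal totals (0.68, limma adjusted p = 0.00524) and without WT-veh replicate 2 (0.59). The ratio in αERKO-DES relative to WT-DES was 1.33 (limma adjusted p = 0.00478), and its direction turned to −0.275 under quantile normalization, whereas with the length correction it was called higher (log2 change 0.85, limma adjusted p = 3.97e-05). Of 13 paraspeckle proteins, *Zc3h6* was the only one called in WT-DES (log2 change 0.62), and also in αERKO-veh (0.49). The shares of all tested genes called in these comparisons were 52.7% and 7.12%. Both calls were lost after quantile normalization, where 2 other paraspeckle proteins were called higher in WT-DES, and the αERKO-veh call also with the length correction. With equal totals 5 of the 13 were called higher in WT-DES. The named core proteins *Nono*, *Sfpq* and *Pspc1* had log2 changes of 0.23, −0.09 and 0.18 in WT-DES and were not called. Of 12 nuclear speckle proteins, only *Srsf2* (−0.59) and *Tra2b* (−0.65) were called in WT-DES, both lower, against 23.9% of all tested genes called lower. None was called by limma in αERKO-veh (8 with an unadjusted p below 0.05). Under quantile normalization, however, 5 were called higher and none lower in WT-DES.

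*Tug1* (taurine upregulated gene 1), on chromosome 11 from 3639785 to 3649673 (minus strand), had the lowest ratio of highest to lowest sample, 1.41, of the 7 tested members. WT-veh samples had 33.8, 31.97, 33.0 and 29.7 FPKM, and WT-DES samples 25.8, 31.8, 32.4 and 30.5. The αERKO-veh samples had 34.6, 30.1, 31.4 and 33.8, and those of αERKO-DES 32.5, 31.6, 36.5 and 33.0. All 4 groups overlapped. The log2 change with DES was −0.09 in WT (95% interval −0.26 to 0.07, limma adjusted p = 0.279) and 0.04 in αERKO (95% interval −0.12 to 0.20, limma adjusted p = 0.788), signs that both turned under quantile normalization and equal totals. Its interaction was called with the length correction (−0.60, limma adjusted p = 0.000704). *Morc2a*, which shares exonic sequence with *Tug1* on the opposite strand, was 17.99 ± 1.077 FPKM in WT-veh and 16.9 ± 1.59 in WT-DES (log2 change −0.09, limma adjusted p = 0.288).

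**Figure D3:**
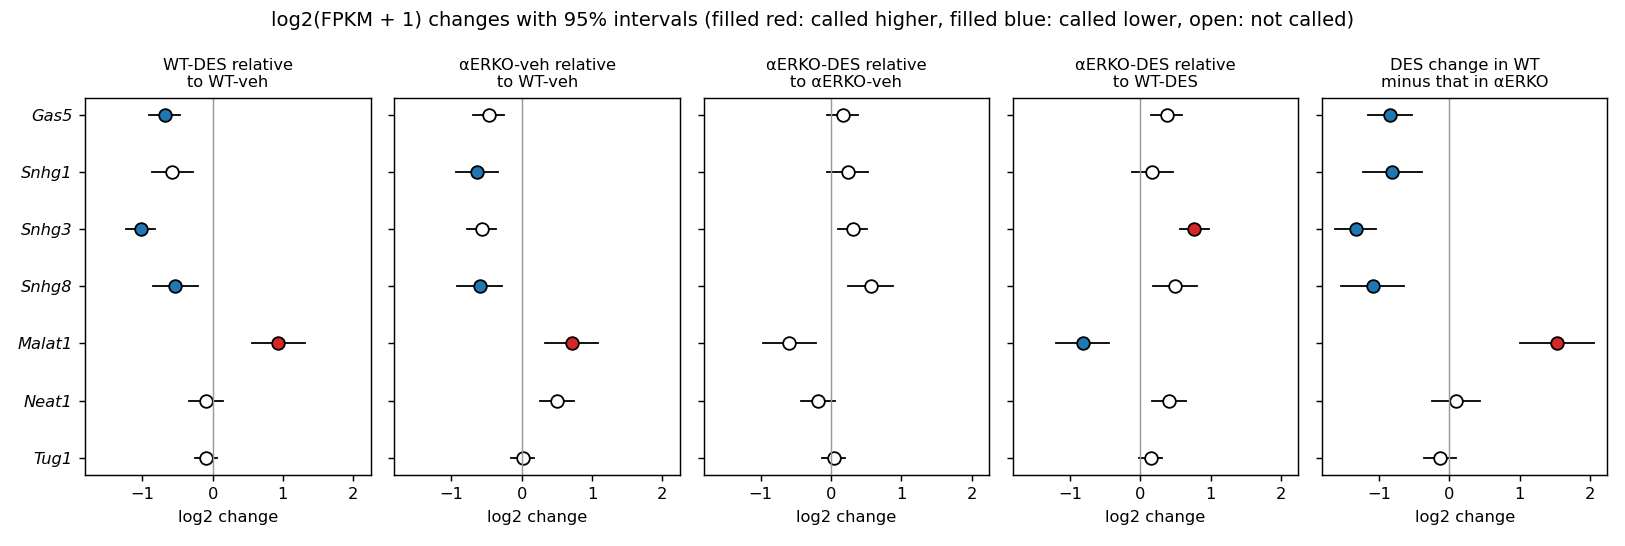
log2 change on the log2(FPKM + 1) scale (x axis) with its 95% interval for the 7 tested lncRNAs (y axis) in the 4 group comparisons and the interaction. Red points were called higher and blue points lower, and open points were not called. With DES in WT the hosts lie left of 0 and *Malat1* at 0.94, whereas in αERKO no point is filled.

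*Hotair* lies in the HoxC cluster on chromosome 15 from 102944062 to 102947730 (minus strand). It was 0.02, 0.11, 0.11 and 0.09 FPKM in WT-veh and 1.27, 0.21, 0.18 and 0.67 in WT-DES. In αERKO-veh it was 0.07, 0.11, 0.09 and 0.04, and in αERKO-DES 0, 0.02, 0.02 and 0. Every WT-DES sample was above every other sample, and αERKO-DES was below αERKO-veh. From the estimated depth these values stand for about 9 to 58 fragments in WT-DES but only 1 to 4 in WT-veh, with αERKO-veh at 2 to 4 and αERKO-DES at 0 or 1, so that no fold is given. The mean of log2(FPKM + 1) differed by 0.50 between WT-DES and WT-veh (exact two-sided permutation test, p = 0.0286). This is the smallest p that 4 against 4 samples allow, and adjusted over the 8 such exact permutation tests on *Hotair* and *Miat* it was 0.0381.

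Of the 9 *Hoxc* genes in the table, 4 passed the FPKM minimum. *Hoxc6*, *Hoxc8* and *Hoxc11* did so through WT-DES alone, so that their being tested depended on their level there, and no count of changes is given for them. *Hoxc10*, which also passed in αERKO-veh, had a mean of 0.84 FPKM in vehicle and 1.78 with DES in WT, and of 1.67 and 0.07 in the αERKO groups. It rose in WT-DES (log2 change 0.61, limma adjusted p = 0.0455), and fell in αERKO-DES relative to αERKO-veh (−1.25, limma adjusted p = 0.0351), and both calls were lost after quantile normalization. *Hoxc11*, one neighbour of *Hotair*, was between 0.13 and 0.40 FPKM in WT-veh and between 0.75 and 3.65 in WT-DES. It was at most 0.06 in αERKO-DES. *Hoxc12*, the other neighbour, was listed at 0 in all 16 samples. The summed adipose markers, which also were lowest in αERKO-DES, ranged from 15.4 to 40.7 FPKM there. They ranged from 62.3 to 641 in αERKO-veh, and in WT from 114 to 609 with vehicle and from 482 to 1145 with DES, and their part in these values was not tested.

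*Miat* is on chromosome 5 from 112213228 to 112229395 (minus strand), and an annotated gene on the opposite strand overlaps its exons. It was 0.11, 0.11, 0.10 and 0.10 FPKM in WT-veh and 0.73, 0.59, 1.11 and 0.61 in WT-DES. The αERKO-veh values were 0.13, 0.58, 0.08 and 0.21, and the αERKO-DES values 0.03, 0.07, 0.01 and 0.03. WT-DES was above all other samples, WT-veh was tight, and 1 αERKO-veh sample came close to WT-DES. On estimated fragments this was 145 to 273 in WT-DES and 19 to 21 in WT-veh, with αERKO-veh at 15 to 112 and αERKO-DES at 2 to 14. The ratio of means was 7.24 between WT-DES and WT-veh, and the means of log2(FPKM + 1) differed by 0.66 (exact two-sided permutation test, p = 0.0286). Between αERKO-veh and WT-veh they differed by 0.16 (exact two-sided permutation test, p = 0.2857), with 1 value of 4 behind most of it, and between αERKO-DES and αERKO-veh by −0.26 (exact two-sided permutation test, p = 0.0286).

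Of 20 other named lncRNAs tested, *Gm10872*, *5830416P10Rik* and *Mirg* passed the FPKM minimum through WT-DES alone and are left out of the counts. Of the remaining 17, 9 rose and 1 fell in WT-DES, with a median log2 change of 0.51 against −0.01 over all genes, of which 28.9% were called higher. After quantile normalization 6 were called higher and 2 lower. Among the largest changes were those of *Fendrr* (1.23 ± 0.299 FPKM in WT-veh and 10.6 ± 9.92 in WT-DES; log2 change 2.08, limma adjusted p = 0.000141), *Meg3* (30.7 and 123.9; 1.96, limma adjusted p = 6.88e-06) and *Rian* (3.50 and 16.1; 1.91, limma adjusted p = 1.94e-06). The WT-DES mean of *Fendrr* rests largely on replicate 1, at 25.4 FPKM, where the others had 4.28, 6.45 and 6.32. *Meg3* and *Rian* are neighbours in one imprinted domain. In αERKO-veh relative to WT-veh only *1700020I14Rik* was called, at 0.75, and with the length correction none was. With DES in αERKO, *Meg3* fell from a mean of 25.5 to 11.1 FPKM (log2 change −1.17, limma adjusted p = 0.0364) and *Rian* from 4.07 to 1.58 (−0.93, limma adjusted p = 0.042), where 1.41% of all genes were called lower. Neither was called with the length correction or after quantile normalization. Fibroblast markers summed to between 496 and 594 FPKM in αERKO-DES, below every αERKO-veh sample (598.5 to 980.0), and the adipose markers given above were lower there too, and their part in these falls was not tested. The interaction was called positive for 8 of the 17 and negative for 1, *Pvt1*, against 29.6% and 26.9% of all tested genes. These counts were 7 and 2 after quantile normalization, 8 and 2 with the length correction, and 12 and 0 with equal totals.

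Transcript length moved with the changes across genes. Over 15037 genes with a length, Spearman's rho between the log2 change and the longest annotated transcript was 0.26 for DES in WT, −0.32 for DES in αERKO, 0.55 for genotype in vehicle (αERKO-veh against WT-veh), −0.14 for genotype after DES and 0.27 for the interaction. The longest transcripts of *Malat1* (6983 nt), *Neat1* (20771 nt) and *Tug1* (6719 nt) exceed those of *Gas5* (2556 nt), *Snhg1* (2728 nt), *Snhg3* (581 nt) and *Snhg8* (776 nt). With each sample corrected for its trend on this length, *Malat1* in WT-DES was at 0.57, *Gas5* at −0.56 and *Snhg3* at −0.40, all with a limma adjusted p under the threshold but a fold below it, and *Neat1* was called lower (−0.78). No member was called in αERKO-veh relative to WT-veh after this correction, with *Malat1* at 0.46 (limma adjusted p = 0.0378). On the median transcript, which is 606 nt for *Malat1*, *Malat1* was called in both comparisons (1.22 and 0.86), and it was the only member called in αERKO-veh. The length behind the deposited FPKM of each gene is not stated in the sources used here.

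**Figure D4:**
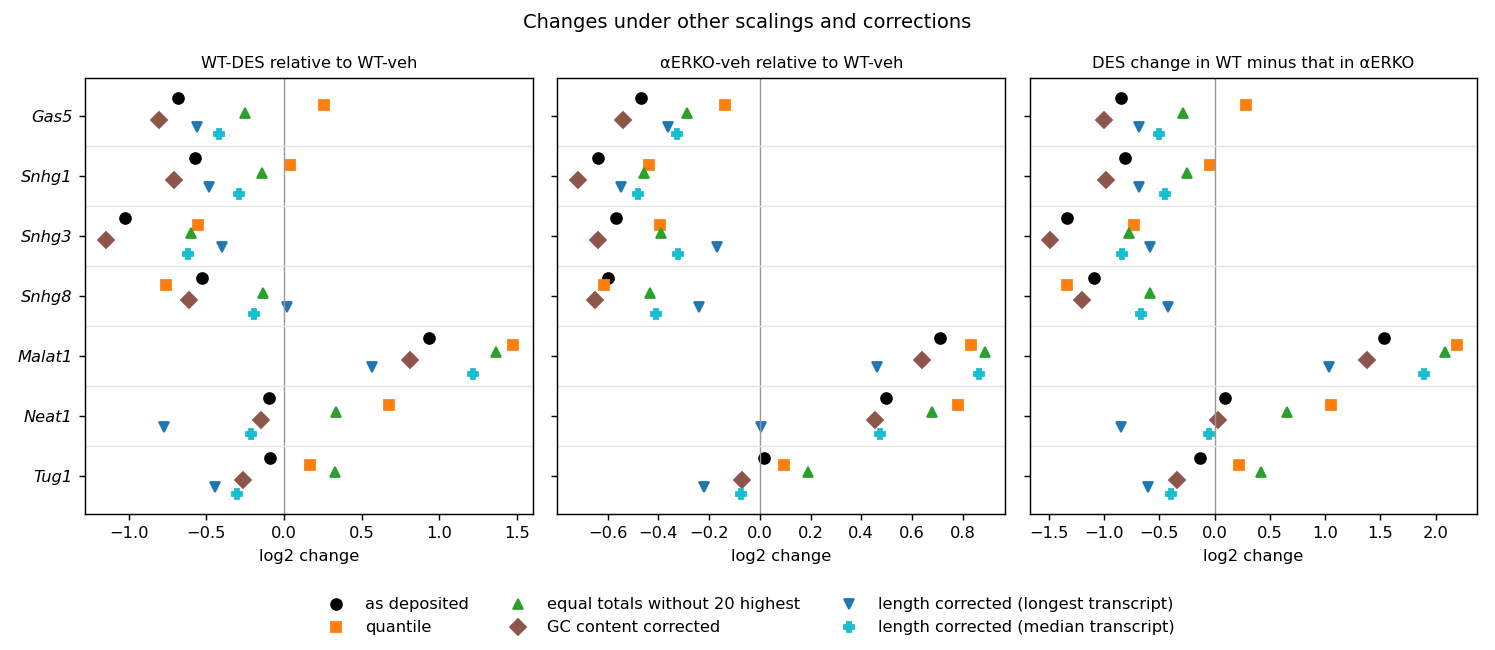
log2 change (x axis) of the 7 tested lncRNAs (y axis) as deposited and under 5 other scalings or corrections, in WT-DES and in αERKO-veh relative to WT-veh and for the interaction. *Malat1* stays right of 0 and *Snhg3* left of 0 in all 3 panels. Under quantile normalization *Gas5* changes side in WT-DES and in the interaction but not in αERKO-veh, and *Snhg1* does so in WT-DES (0.04). *Snhg8* changes side in WT-DES with the length correction (0.02), and *Neat1* and *Tug1* under several settings.

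Scaling moved the calls too. With equal totals outside the 20 highest genes, the median log2 change of all genes in WT-DES relative to WT-veh went from −0.01 to 0.38 and the share of higher genes among the calls from 54.7% to 79.2%. On that scale *Malat1* was at 1.36 and *Snhg3* at −0.60, both called, and *Gas5* at −0.25, *Snhg1* at −0.14 and *Snhg8* at −0.14 were not. All 4 hosts were below the shifted median of 0.38 and *Malat1* was above it. This scaling moves all genes of a sample alike, so their place relative to the median is not a separate result. In αERKO-veh relative to WT-veh, equal totals left *Malat1* and *Neat1* called, both higher, and no member called lower. *Snhg8* was at −0.43 there (limma adjusted p = 0.0501). After quantile normalization *Malat1* and *Neat1* were called higher and *Snhg8* lower (−0.61) in that comparison.

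The tested gene with the profile closest to a member was found by Pearson's r of log2(FPKM + 1) over the 16 samples, as a description. All genes share the libraries and the group differences. For *Malat1* it was *Smg1* (r = 0.969), which rose from 7.46 ± 1.82 FPKM in WT-veh to 16.6 ± 0.60 with DES. Its αERKO-veh mean was 13.5 ± 2.76 and its αERKO-DES mean 9.89 ± 2.48. For 3 of the hosts it was *Rpl7l1*, a ribosomal protein like gene, with *Snhg3* (r = 0.982), *Gtl3* with *Snhg1* (0.933) and *Tfpt* with *Snhg8* (0.849). *Neat1* was closest to *Mib1* (0.859), an E3 ubiquitin ligase of Notch signalling, and *Tug1* to *Shc1* (0.894), a signalling adaptor.

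**Figure D5:**
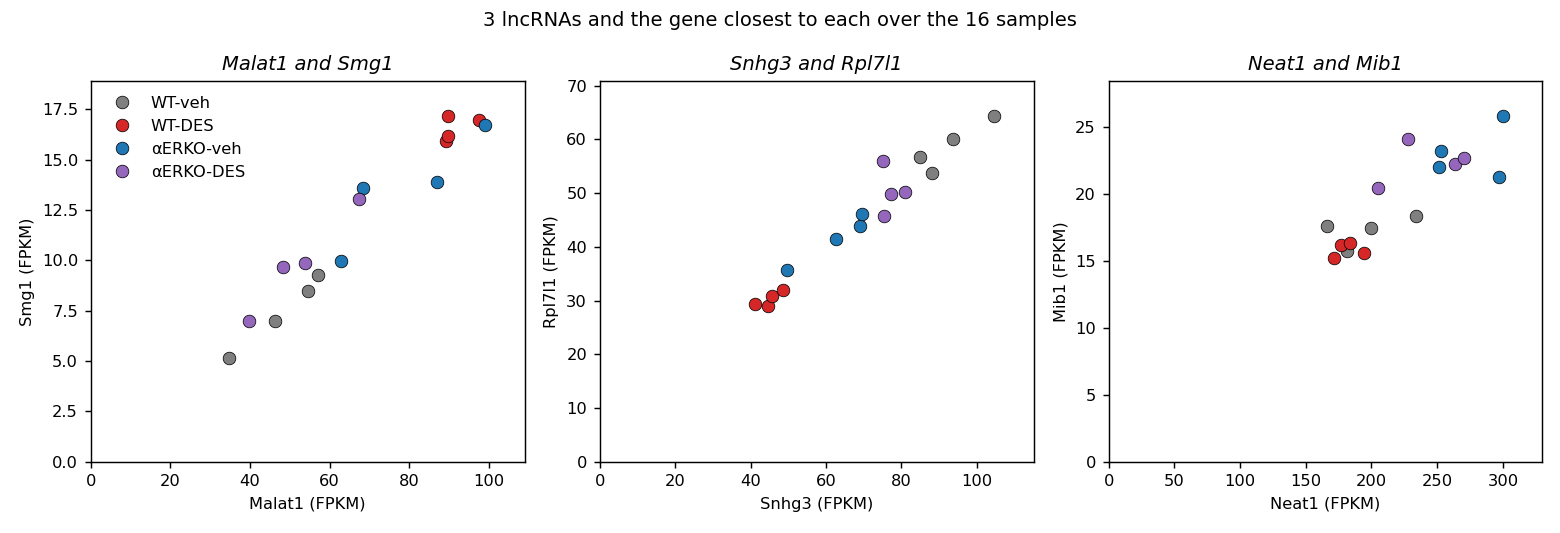
FPKM of *Malat1*, *Snhg3* and *Neat1* (x axes) against that of the tested gene with the closest profile (y axes), 1 point per sample, coloured by group. *Snhg3* and *Rpl7l1* are lowest in the WT-DES samples and have their highest means in WT-veh, and *Malat1* and *Smg1* lowest in 1 WT-veh sample.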

How the data were processed

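The authors deposited FPKM of 31274 genes in 16 samples (4 per group, grouped by the labels), made from 126-nt paired reads with average quality above 20, aligned to mm10 (GRCm38) with TopHat 2.0.4 and quantified with Cufflinks 2.0.2. The gene models behind the table and any scaling between libraries are not given in the sources used here. Genes with a mean above 1 FPKM in a group (15988) were fitted as log2(FPKM + 1) with limma 3.58.1 in R 4.3.3 (group means, eBayes with trend, Benjamini-Hochberg over all tested genes). Log2 changes are on that scale, which understates those of low genes. Ratios and the fold threshold between groups use mean FPKM, and the fold threshold of the interaction uses the log2 scale. *Hotair* and *Miat* were compared by exact permutation (scipy 1.17.1). P-values measure the spread between samples, which may in part be technical. Alternatives were another pseudocount (0.1) or minimum (none, or 5), no fold threshold, other fits and scalings, lowess correction (span 0.3) for length or GC content of GENCODE M21 transcripts (94.1% of tested genes matched), and leaving out each sample. Correction on median transcripts was added after seeing the data. Steps were tested on simulated data. The genes named are the 9 members, listed neighbours, at most 3 leading genes of each list and the closest profiles, of which 1 is not reported here. Further genes of the lists, in counts of 5 or fewer, were chosen after their values were seen. Members and lists were chosen with earlier results of these data known. Depth was estimated from FPKM steps of genes with 1 transcript and is approximate. Sequences are from RefSeq (GRCm38.p6), found for 7 members.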

Additional observations from a re-analysis of the deposited data

Results flagged for a closer look

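*Malat1* in WT-DES had 1 sample, replicate 3 at 97.45 FPKM, far from 3 samples between 89.1 and 89.7, with a gap to range ratio of 0.929, above Dixon's 95% critical value for 4 samples. Chance puts about 1 in 20 groups above that critical value, and the group's SD of 4.001 was the smallest of the 4. The log2 change with DES differed between WT and αERKO for *Gas5* (−0.85), *Malat1* (1.53), *Snhg1* (−0.81), *Snhg3* (−1.33) and *Snhg8* (−1.09), each by the interaction term of the limma model.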

How the results depend on the processing

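Of the 7 tested members, *Malat1* and *Snhg3* kept the direction of each of their 5 changes in every alternative, and none of the other 5 did so for all 5 changes. The calls over all genes moved with many of the member counts. With DES in WT, the number of members called went from 4 to 2 with equal totals without the 20 highest genes, to 1 with the length correction and to 2 with that on median transcripts. In αERKO-veh relative to WT-veh it went from 3 (1139 over all genes) to 6 (4150) without the fold threshold, to 0 (448) with the length correction, to 1 (776) with that on median transcripts, and to between 1 and 5 when 1 sample was left out (1, and 418 over all genes, without αERKO-veh replicate 2, and 5, and 1327, without WT-veh replicate 2). In αERKO-DES relative to αERKO-veh it went from 0 (239 over all genes) to 1 with a pseudocount of 0.1 (401) or the GC correction (313), to 2 (1119) with sample weights, and to between 0 and 2 when 1 sample was left out, with 1 to 653 over all genes (2 and 653 without αERKO-veh replicate 1, 1 without αERKO-veh replicate 3 or αERKO-DES replicate 4). In αERKO-DES relative to WT-DES it went from 2 to 4 without a minimum, which added *Hotair* and *Miat*, to 5 without the fold threshold, and to 1 with equal totals or either length correction (on the longest transcript, *Neat1* in place of *Malat1* and *Snhg3*). With equal totals 3 interactions were called in place of 5, those of *Malat1*, *Snhg3* and, newly, *Neat1*, so that *Gas5*, *Snhg1* and *Snhg8* lost theirs. With the length correction on median transcripts *Malat1*, *Snhg3* and *Snhg8* kept their calls and *Gas5* and *Snhg1* lost theirs. With that on the longest transcript *Neat1* and *Tug1* took the place of *Snhg3* and *Snhg8*. Changes that reversed a call or were called in the other direction were those of *Neat1* in WT-DES under quantile normalization (0.68), *Gas5* in WT-DES (0.26) and in the interaction (0.29) under quantile normalization, *Snhg8* in WT-DES with the length correction (0.018), and *Neat1* in the interaction with the length correction (−0.84, limma adjusted p = 0.00115), which was called in the positive direction under quantile normalization (1.06, limma adjusted p = 0.000197) and equal totals (0.66, limma adjusted p = 0.00314). The cause of these changes was not tested. Deviations of same-numbered samples from their group means correlated between −0.21 and 0.28. Differently numbered samples were not compared, so this cannot show whether same-numbered samples share more than a number. A replicate block left the member counts at 4, 3, 0, 2 and 5. FPKM hold no counts, and 4 samples per group and values with 2 decimals limit what can be seen for *Hotair* and *Miat*.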
